A study of Mus musculus with 11 samples.

Results

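Egr1, Nab2 and Arc are 3 of the 178 genes in a deposited RNA-seq table of mouse gingival epithelium, and all 3 were among the 176 genes with enough counts to be tested. They were taken by gene name and were chosen by their normalised counts in the naive, ligature and removal libraries, with those values in view, so their levels and differences are given below as a description and no p-value is printed for them. Where a member is said to be called, the call is part of that description and is no evidence. The study used male B6 mice. Naive mice (n = 4 libraries) carried no thread, in the ligature group (n = 3) silk threads stayed tied around the second molars of the upper jaw, and in the removal group (n = 4) the threads were taken off on day 3. Gum tissue of all groups was soaked in the protease Dispase and the epithelium was lifted off before polyA RNA was extracted. The labels give neither the age of the mice nor the day of tissue collection, and they leave unsaid whether each library is a different animal.

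Egr1 encodes a zinc finger transcription factor of the immediate early class. Its transcript appears within minutes of growth factor, stress or wound signals that reach the ERK kinases, SRF and its ETS partners, and it decays quickly. Nab2 encodes a corepressor that binds the inhibitory domain of EGR proteins and dampens their activity. EGR proteins can induce Nab2, so that it acts in a negative feedback loop. Arc is best known as an immediate early gene of neurons, where its protein governs synaptic receptors. It is also driven by SRF and has been described as an EGR target. In keratinocytes Egr1 is a familiar early response to scratch wounding and to ligands of the EGF receptor.

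The stretch just before the annotated start of Nab2 is shown because the gene is both a partner and a described target of EGR1. The sequence comes from RefSeq with the build GRCm38.p6, in which it spans chr10:127666711-127666900 on the minus strand and is written 5′ to 3′ in the direction of Nab2. The sequencing reads were assigned on another build, GRCm39, so these coordinates apply to the printed sequence alone. In the GENCODE M21 annotation of the same build as the sequence, these 190 bases lie between the first exon of the principal Nab2 transcript and the divergent gene Nemp1, and within an intron of 1 longer Nab2 transcript. Capitals mark 8 letters of the EGR recognition core.
Nab2: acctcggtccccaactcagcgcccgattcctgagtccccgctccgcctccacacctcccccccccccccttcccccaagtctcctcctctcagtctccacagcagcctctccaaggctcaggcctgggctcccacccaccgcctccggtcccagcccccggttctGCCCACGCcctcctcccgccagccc

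The core GCGTGGGC was searched on both strands. It occurred 1 time in the printed stretch, on the strand opposite to the gene, where it reads GCCCACGC and covers the bases 32 to 25 before the RefSeq start. The 9-letter form GCGTGGGCG, which contains the core, did not occur. Among all 32851 RefSeq start windows of equal length (250 bases before to 50 after a start), 1.63% held the core and 0.612% the longer form. Of the 134 genes of the table with such a window 6 held the core: Camta1, Ifrd1, Nab2, Pfkp, Ralgds and Tmem117. A match is a description of letters and not a binding site. Egr1 and Arc had no entry in the table of start windows.

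Several properties of the table bear on every value below. The 178 genes had 282274 to 503570 counts per library, which is a small part of each library and not its depth. Of the 176 genes tested, 162 had an unadjusted edgeR p under 0.05 in ligature or removal against naive, so the table holds genes that differ between these groups and its shares of called genes are no background of the transcriptome. The deposited batch correction divides the libraries in 2 sets, although the labels name no batch. Set A comprised removal replicates 2 to 4, the first 2 naive replicates and ligature replicate 1 as its single ligature library. Set B comprised the other libraries, with removal replicate 1 as its single removal library. Of 53 marker genes of epithelium and of other cell types only 2 were in the table, the suprabasal keratin Krt10 and the macrophage marker Cd68. With so few markers the labelled cell type could be checked by Krt10 alone, which had 81960 to 187178 normalised counts in all libraries. In bulk tissue, fewer cells of a type and less RNA per cell cannot be told apart. RNA of all groups was extracted after the Dispase soak, so every level is that of prepared tissue. The part of the preparation in these levels was not tested.

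Egr1 transcript was highest in naive epithelium, lowest with the ligature in place and in between after removal. Egr1 (ENSMUSG00000038418) had normalised counts, which are read counts divided by the size factor of the library, of 17016, 17944, 16956 and 19550 in naive replicates 1 to 4. With the ligature the counts were 9473, 9081 and 8143. After removal they were 10964, 12959, 10473 and 14508. The 3 groups did not overlap, and the highest ligature library lay below the lowest removal library. The group means were 17867 ± 1210 (SD, n = 4), 8899 ± 683 (n = 3) and 12226 ± 1863 (n = 4), and the spread was widest after removal, where removal replicates 2 and 4 lay closer to naive than the other two.

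Nab2 transcript followed a different order, with the highest levels under the ligature. Nab2 (ENSMUSG00000025402) had 614, 583, 479 and 535 normalised counts in the naive libraries. It had 913, 624 and 719 in the ligature libraries. It had 561, 558, 501 and 476 in the removal libraries. Every ligature library was above every naive and removal library, with ligature replicate 2 close to the highest naive library, and the naive and removal groups overlapped. The means were 553 ± 58.8 (SD, n = 4) for naive, 752 ± 147 (n = 3) for ligature and 524 ± 42.0 (n = 4) for removal, so naive and removal did not differ beyond their spread. In GENCODE M21, 35.7% of the exonic bases of Nab2 are shared with the antisense gene model Gm16229, 5.13% with Nemp1 and 1.36% with Stat6, all on the other strand. The library kit keeps strand, but the strand setting of the counting is not given in the sources used here, so reads of these neighbours within the Nab2 counts cannot be told apart.

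Arc transcript had the order of Egr1 with larger differences. Arc (ENSMUSG00000022602) had 174, 275, 234 and 216 normalised counts in the naive libraries. It had 40.9, 30.2 and 38.1 with the ligature. It had 48.0, 152, 79.6 and 99.7 after removal. Here too the 3 groups did not overlap, though removal replicate 1 was close to the ligature libraries and removal replicate 2 close to the lowest naive library. The means were 225 ± 41.9 (SD, n = 4), 36.4 ± 5.57 (n = 3) and 94.9 ± 43.8 (n = 4).

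The depth behind Arc was the lowest of the 3 genes, with 31 to 48 raw counts in the ligature libraries and 43 to 148 after removal. The exact Poisson 95% interval of the 43 counts of removal replicate 1 was 34.7 to 64.7 on the normalised scale, which includes the ligature values 40.9 and 38.1 but not the lowest, 30.2. That interval covers counting error only. Nab2 had 363 to 1071 raw counts per library and Egr1 8757 to 22249. The within-group coefficient of variation of Egr1 was 6.77% in naive and 7.68% in ligature libraries, against medians of 12.2% and 14.1% over the 176 genes. For Arc it was 46.2% after removal, higher than in 165 of the 176 genes, whose median was 13.3%.

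**Figure D1:**
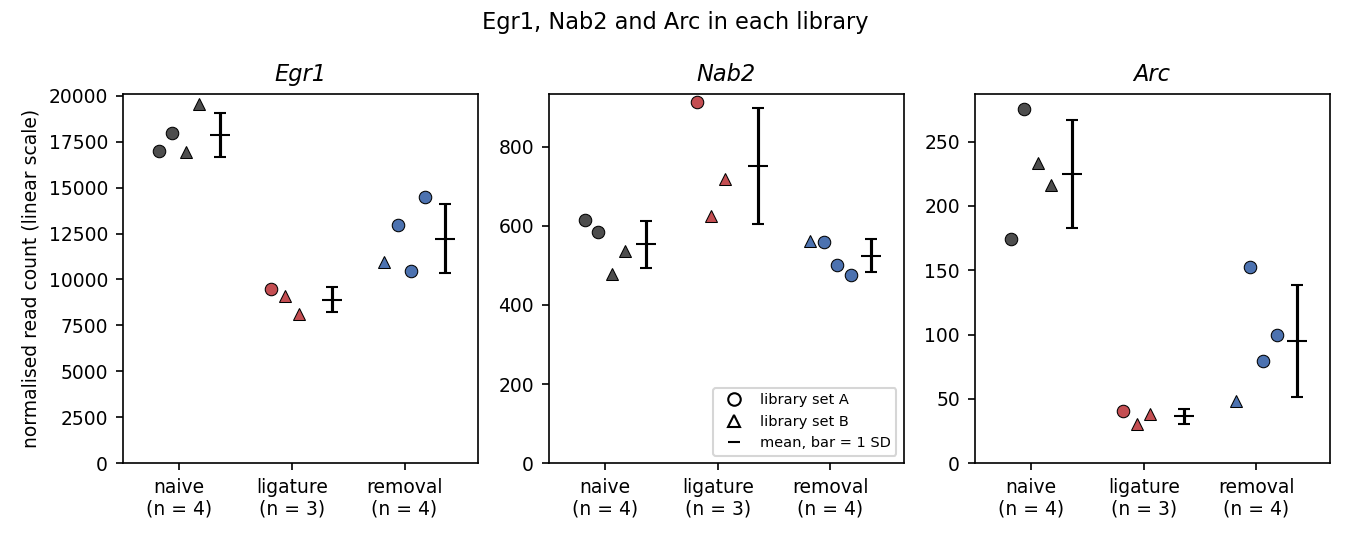
Normalised read counts (linear vertical axis, from 0) of Egr1, Nab2 and Arc in each of the 11 libraries by group. Circles and triangles are the library sets A and B read from the deposited batch correction, and bars show the mean with 1 SD; Egr1 and Arc are ordered ligature, removal, naive without overlap, and the 3 Nab2 ligature libraries (624 to 913) lie above all others.

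Across the 11 libraries the log2 levels of Egr1 and Arc had a Pearson correlation of 0.94 (Spearman 0.93), and the correlations of Nab2 with Egr1 and Arc were -0.54 and -0.54 (Spearman -0.49 and -0.52). The libraries form groups on which all 3 genes differ, so these values mostly restate the group order. After the group means were subtracted, Egr1 and Arc had a correlation of 0.50, Nab2 and Egr1 of -0.01, and Nab2 and Arc of 0.06. All are descriptions over libraries that share their scaling.

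With the ligature in place, Egr1 was 2.01-fold lower and Arc 6.15-fold lower than in naive epithelium, while Nab2 was 1.36-fold higher. The edgeR log2 fold changes (ligature minus naive) were -1.01 ± 0.13 (SE) for Egr1, -2.62 ± 0.35 for Arc and 0.44 ± 0.14 for Nab2, beside a median of -0.38 over the 176 genes. Ordered from the lowest value, Arc stood 4th and Egr1 35th of the 176 genes, and Nab2 stood 30th from the highest. In edgeR 2 of the 3 members were called lower, at an adjusted p under 0.05, where 56.8% of the table was called lower, and 1 was called higher, where 28.4% of the table was. All 3 had no overlap between the ligature and naive libraries, as had 74.4% of the table. Since the members were chosen on these values, nothing is read from those counts. The same holds for calls of the members in the other comparisons and in the alternative fits below. There, a call kept or lost describes only how the value depends on the processing and the libraries.

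The difference of Nab2 rested most on ligature replicate 1. Without that library its log2 fold change was 0.28 and no longer called, and without ligature replicate 2 it was 0.56. Factors computed over the table in place of the deposited ones moved the median of all genes from -0.38 to -0.02. They gave Nab2 0.80, Egr1 -0.65 and Arc -2.27 with TMM, each in the same direction and called. Such factors assume that most genes of the table do not differ, which does not hold in a table selected on these groups. They shift all genes alike, so the larger Nab2 value is no support for its rise. The same limit applies to every value below from factors computed over the table. The ratio of means within library set A was -0.88 for Egr1, 0.61 for Nab2 and -2.46 for Arc on the log2 scale, and within set B it was -1.08, 0.40 and -2.72. The single ligature library of set A is ligature replicate 1, so the Nab2 value of set A rests on that same library.

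In the removal group, Egr1 and Arc were lower than in naive epithelium, by 1.46-fold and 2.36-fold, and Nab2 stood near its naive level. The log2 fold changes (removal minus naive) were -0.55 ± 0.12 (SE) for Egr1, -1.24 ± 0.30 for Arc and -0.08 ± 0.13 for Nab2, with a table median of -0.17. Egr1 and Arc stood 32nd and 12th from the lowest of 176 genes and Nab2 stood 100th. In edgeR 2 of 3 members were called lower (24.4% of the table) and 0 of 3 higher (13.1% of the table), and 2 of 3 members had no overlap between removal and naive libraries, against 43.8% of the table. The Nab2 difference had no stable sign: it was 0.13 with TMM factors, -0.23 within library set A and 0.14 within set B. For Arc the log2 ratio was -1.02 within set A and -2.23 within set B, whose single removal library was the lowest of its group. Without removal replicate 2 the Arc value was -1.56 and without removal replicate 1 it was -1.02.

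Against the ligature group, removal libraries had 1.37-fold more Egr1, 2.60-fold more Arc and 1.44-fold less Nab2. The log2 fold changes (removal minus ligature) were 0.46 ± 0.13 (SE), 1.38 ± 0.34 and -0.52 ± 0.14, with a table median of 0.20. Nab2 stood 7th from the lowest and Arc 7th from the highest of the 176 genes. In edgeR 2 of 3 members were called higher (17.0% of the table) and 1 lower (2.84% of the table), and all 3 had no overlap between the groups (29.5% of the table). The calls were fragile: with any ligature library left out all 3 were lost (log2 fold changes 0.40 to 0.51, 1.26 to 1.47 and -0.64 to -0.36 for Egr1, Arc and Nab2), and likewise without removal replicate 2 (0.43, 1.06 and -0.55) or removal replicate 4 (0.37, 1.36 and -0.48). The Nab2 call was also lost without removal replicate 3 (-0.50), and the Egr1 call with TMM factors (0.30). The directions held in all of these fits. The groups did not overlap, so leaving out a library or splitting by library set could not turn a direction. Nothing is read from this. Within sets A and B the log2 ratios of means were 0.42 and 0.35 for Egr1 and 1.43 and 0.49 for Arc. For Nab2 they were -0.83 and -0.26. Set A has a single ligature library and set B a single removal library.

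**Figure D2:**
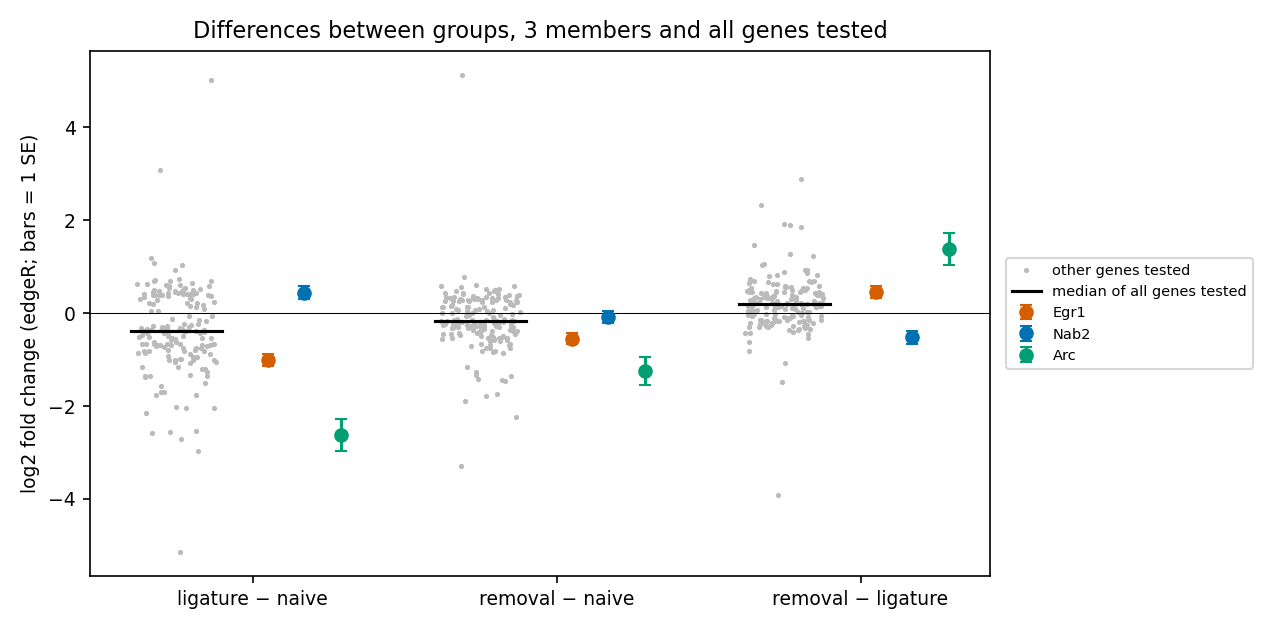
Log2 fold changes of edgeR (vertical axis) for the 3 comparisons, with the 3 members as coloured points with bars of 1 SE, all other tested genes as grey points and the median of the 176 genes as a black line. Egr1 and Arc lie below the median in both comparisons with naive and above it in removal minus ligature, and Nab2 lies on the opposite side in each, at 0.44, -0.08 and -0.52.

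The order ligature below removal below naive, with no overlap between any of the groups, was seen in 13 of 176 genes (7.39%), Egr1 and Arc among them. The others were Alpk2, Gadd45g, Gm26802, Ier2, Ifrd1, Iqcn, Nfkbia, Phlda1, Rhob, Tcim and Zfp36. Libraries with the ligature lay above all other libraries in 10 genes (5.68%), which included Nab2, Dlx4os, Fam81a, Hnrnpr, Klhl5, Nfic, Pdlim4, Ppp1r3b and Tfap2b. On the linear scale the mean of the removal libraries stood at 37.1% of the distance from the ligature mean to the naive mean for Egr1 and at 31.1% for Arc. The groups are separate libraries, so this is a position and not a course in time. Single removal libraries ranged from 17.5% to 62.5% for Egr1 and from 6.17% to 61.6% for Arc. Over the 100 genes called lower with the ligature the median was 38.8%, and 44 of them stood below Egr1 and 32 below Arc.

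The ratio of 2 genes within a library does not depend on the scaling of the library, so it was also compared. The ratios of Nab2 and of Arc to Egr1 are made from the values on which the members were chosen. They are therefore a description and no separate evidence. Naive libraries had 36.1, 32.5, 28.3 and 27.4 Nab2 counts per 1000 Egr1 counts. Ligature libraries had 96.3, 68.7 and 88.3. Removal libraries had 51.1, 43.1, 47.9 and 32.8. The ligature libraries stood apart from all others, while removal replicate 4 fell within the naive range. The mean log2 ratio of Nab2 to Egr1 was 1.44 higher with the ligature than in naive libraries, a 2.71-fold difference, and 0.48 higher after removal. The values compare the same 2 genes between libraries and give no relative abundance of their transcripts, since counts were not divided by transcript length.

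Arc also differed relative to Egr1. Naive libraries had 10.2, 15.3, 13.8 and 11.1 Arc counts per 1000 Egr1 counts. Ligature libraries had 4.32, 3.32 and 4.68. Removal libraries had 4.38, 11.8, 7.60 and 6.87. Ligature and naive libraries did not overlap, and the removal libraries spanned the space between, with replicate 1 inside the ligature range and replicate 2 inside the naive range. The mean log2 ratio was lower by 1.61 with the ligature than in naive libraries (log2 difference -1.61) and by 0.79 after removal (-0.79). With the batch-corrected values of the authors the mean log2 ratios of Arc to Egr1 were -6.35, -7.69 and -7.08 in naive, ligature and removal libraries, against -6.33, -7.94 and -7.12 before that correction.

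**Figure D3:**
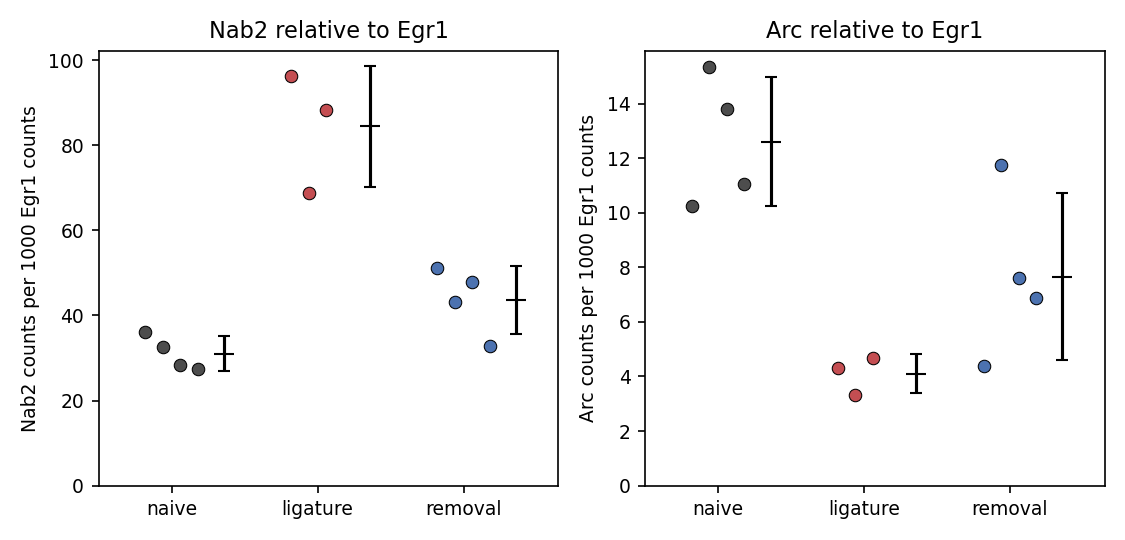
Nab2 counts (left) and Arc counts (right) per 1000 Egr1 counts in each library, on linear axes from 0, by group, with mean and 1 SD as bars. The ligature libraries have the highest Nab2 ratios (68.7 to 96.3) and low Arc ratios (3.32 to 4.68), and 1 removal library lies among the latter at 4.38.

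The genes most like each member were those with the highest Pearson correlation of log2(normalised count + 1) over the 11 libraries, out of 165 genes without predicted models. For Egr1 they were the immediate early gene Ier2 (0.98), the mRNA decay factor Zfp36 (0.97) and the AP-1 subunits Junb, Fos and Jun (0.97 each). The deviations from group means correlated with those of Egr1 at 0.73 to 0.90 for these 5 genes. For Arc they were the EGF receptor ligands Hbegf (0.96) and Areg (0.95), the NF-kappaB inhibitor Nfkbia (0.95), Iqcn (0.95) and Egr1 (0.94), with deviations at 0.50 to 0.89. For Nab2 the values were lower, and its 5 genes included the actin-associated Pdlim4 (0.85), the zinc finger gene Zfp516 (0.83), the glycolytic enzyme gene Pfkp (0.79) and the mitotic kinesin Kif14 (0.75). By Spearman correlation 1 of the 5 genes for Egr1, 2 for Nab2 and 3 for Arc stayed among the first 5, so the order among similar genes is not firm.

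Other genes of the EGR and growth factor response were taken from 6 lists with 113 genes beside the members. Of these 31 were in the table and 82 were not, among the latter Egr2, Egr3, Egr4 and Nab1, for which no value is given here. With the ligature in place 30 of the 31 fell and 0 rose (edgeR, adjusted p under 0.05), with a median log2 fold change of -0.72 against -0.38 over all tested genes. With TMM factors 20 fell and 1, Vegfa, rose. After removal 21 of 31 were lower than in naive libraries and 0 were higher (median -0.46, against -0.17 over all), and 13 were lower with TMM or without removal replicate 3. Between removal and ligature 11 rose and 0 fell (median 0.37, against 0.20), with 3 rising and 1 falling under TMM and 0 called in edgeR without any 1 ligature library, removal replicate 2 or removal replicate 4. Over all tested genes 56.8% were called lower and 28.4% higher with the ligature. After removal against naive the shares were 24.4% lower and 13.1% higher, and in removal minus ligature 17.0% higher and 2.84% lower. The table was selected on these groups, and so the counts are a description. Nab2 was the only gene among the members and measured list genes that was called higher with the ligature under the deposited scaling, as were 28.4% of all tested genes. Nab2 and the lists were chosen with earlier results of these data known, so nothing is read from this.

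By role, the 2 measured EGF receptor ligands Areg and Hbegf both fell with the ligature, with log2 fold changes of -1.50 ± 0.30 (SE) and -1.27 ± 0.21. No measured list gene encoded a receptor, a RAS, RAF, MEK or ERK protein or SRF. The ERK phosphatase gene Dusp1, the single measured gene of 13 feedback inhibitors, fell by 0.54 ± 0.15 with the ligature (edgeR adjusted p = 0.00751). The table was selected on these groups and the list chosen with earlier results known, so that p-value is a description. After removal Dusp1 stood at -0.34 and was not called. With TMM it stood at -0.17 with the ligature and that call was lost. Of 26 other genes described as bound or induced by EGR1, 6 were in the table and 5 (against 56.8% of all tested genes) fell with the ligature. They included Atf3 (-2.04 ± 0.30), a stress-induced repressor, the prostaglandin synthase gene Ptgs2 (-1.70 ± 0.39), Nfkbia (-1.02 ± 0.12) and Dusp1. Vegfa, a vascular growth factor gene, stood at -0.07 ± 0.12 and was not called, but was called higher with TMM (0.29). After removal 5 of the 6, against 24.4% of all tested genes, were lower than in naive libraries. Dusp1 was the exception, and Vegfa stood at -0.32 ± 0.11. The Vegfa call ended with TMM (-0.12), with median-of-ratios factors (-0.17) and with the loss of any 1 naive or removal library (-0.35 to -0.28). Against the ligature group 1 of the 6 rose after removal, which is near the 17.0% of all tested genes. It was Nfkbia at 0.43 ± 0.12, a call lost with TMM (0.27) and without any ligature library or removal replicates 2 or 4 (0.38 to 0.47).

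Of the immediate early transcription factor genes 11 of 25 were measured. All 11 fell with the ligature (log2 fold changes -2.04 to -0.47), 8 were lower after removal than in naive libraries, and 3 rose between ligature and removal. Of the other immediate early genes 14 of 22 were measured. All 14 fell with the ligature (-1.70 to -0.24), 9 were lower after removal and 6 rose between ligature and removal. The lowest values of these lists, -2.04 and -1.70, were those of Atf3 and Ptgs2. Both are also in the list of genes bound or induced by EGR1, so the lists are not separate groups. Over all 176 tested genes the shares were 56.8% lower with the ligature, 24.4% lower after removal and 17.0% higher in removal than under the ligature, and the 3 of 11 are near the last.

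**Figure D4:**
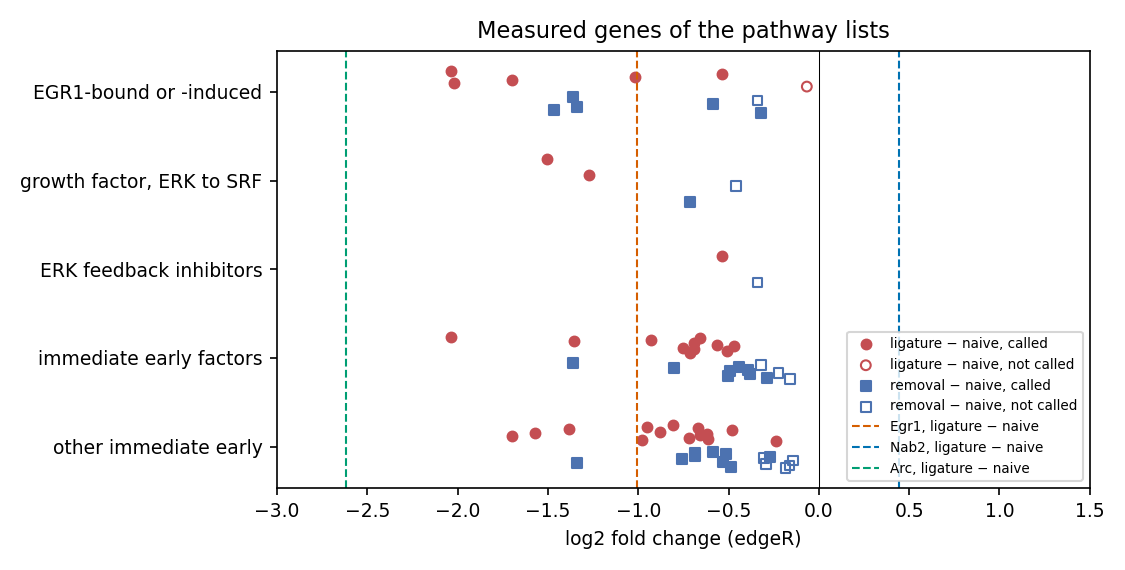
Log2 fold changes of edgeR (horizontal axis) for the measured genes of 5 lists without the 3 members (the list of EGR and NAB genes had no other measured gene). The lists overlap, and Atf3, Ptgs2 and Dusp1 are each drawn in more than a single row. Red circles are ligature minus naive and blue squares removal minus naive, filled where called; dashed lines mark Egr1 (-1.01), Arc (-2.62) and Nab2 (0.44) in ligature minus naive, and all points lie below 0.

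The 2 marker genes in the table also moved with the groups. The table was selected on these groups, so a marker within it was likely to differ. Their values and p-values are a description, and nothing is read from them about the mix of cells. The macrophage marker Cd68 fell from 222 to 336 normalised counts in naive libraries to 170 to 191 with the ligature (log2 fold change -0.67 ± 0.16 (SE), edgeR adjusted p = 0.00402) and stood at 208 to 238 after removal. With TMM its fall was no longer called (-0.31). Krt10 rose from between 81960 and 109641 to between 116428 and 187178 (0.64 ± 0.22, edgeR adjusted p = 0.0182), a call lost without naive replicate 4 (0.58) or ligature replicate 1 (0.42). With the ligature Cd68 thus ran in the direction of Egr1 and Arc, and Krt10 in that of Nab2. After removal Krt10 was at 88347, 149110, 162606 and 129810, which was 0.50 above naive and -0.14 against the ligature on the log2 scale, neither of them called, whereas Nab2 stood at -0.08 and -0.52. The part of both markers in the differences of the members was not tested. Ligature replicate 1 had the highest Krt10 (187178) and the highest Nab2 (913) of its group. Removal replicate 1, the single removal library of set B, had the lowest Krt10 of its group and also the lowest Arc. It had the highest Nab2 (561) and the highest Cd68 (238) of that group. Markers of Langerhans and dendritic cells, neutrophils, T cells, fibroblasts, endothelium, nerve, melanocytes and Merkel cells were not in the table.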

How the data were processed

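Strand-preserving polyA libraries of 11 epithelium samples were analysed from 1 deposited table. Tools listed without roles in the submitters' processing notes are DESeq2 1.36.0, HTSeq 2.01, TopHat2 2.1.1 and cutadapt 2.10, with the build GRCm39. The authors deposited raw counts, normalised counts (a signal equal to the raw count divided by 1 size factor per library, 0.757 to 1.21) and batch-corrected values on the same scale; the sources used here do not state the correction method. A gene was named in 178 of 993339 rows. The 2 library sets are the division of 957 tried under which the corrected values followed the normalised counts linearly in both sets (residual 3.23e-05% of a gene's mean as a median over genes, next best 1.01%).

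Raw counts were fitted with edgeR 4.0.16 (R 4.3.3; quasi-likelihood F test, deposited size factors, 1 mean per group over all 11 libraries, default filter by group, Benjamini-Hochberg over 176 genes, two-sided, adjusted p under 0.05). The edgeR calculation was tested on simulated data. P-values measure the spread between libraries, which may be technical. The members and gene lists were chosen with earlier results of these data known. Genes were named by rule: the 3 members, called list genes, and the 5 most correlated genes per member; genes named for an order of groups, Vegfa and genes holding the motif were named after their values were seen. Some genes that these rules select are not reported here. Alternatives were other scalings, DESeq2 1.42.0, no filter, 2-group fits, a replicate block, a library set term and each library left out.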

Additional observations from a re-analysis of the deposited data

How the results depend on the processing

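Over the 9 differences of the 3 members, 156 alternative values were computed, of which 122 kept direction and call or moved by less than 1 SD, 23 lost the call, 2 reversed and 9 moved further. In removal minus naive Nab2 (-0.08, not called) turned to 0.13 with TMM and 0.084 with median-of-ratios factors, and was -0.23 and 0.14 within library sets A and B. In removal minus ligature the Egr1 call was lost with TMM (0.30), with median-of-ratios factors (0.25), in a fit of the 2 groups alone (0.458) and with a replicate block (0.38). The replicate block also ended the calls of Nab2 (-0.48) and Arc (1.25) in that comparison, where the table had 8 calls in place of 35 and the 31 list genes 2 in place of 11. The deviations of same-numbered libraries had correlations from -0.48 to 0.54, and 5 of 20 correlated best with their own number. These correlations were positive only where both libraries were of the same library set. The check therefore cannot tell whether the numbers pair samples, and the calls lost with the block remain a limit. Within library sets, values of Egr1 that moved by more than 1 SD were ligature minus naive (-0.88, set A) and removal minus naive (-0.74, set B). Those of Arc were removal minus naive (-2.23, set B) and removal minus ligature (0.49, set B). Those of Nab2 were removal minus naive (-0.23 and 0.14, sets A and B) and removal minus ligature (-0.83 and -0.26). With batch-corrected values Arc in ligature minus naive also moved by more than 1 SD, to -2.22. The cause was not tested. Among the other named genes, signs turned for Vegfa in ligature minus naive (0.29 with TMM, 0.28 with median-of-ratios factors, -0.21 to 0.052 with a library left out), for Dusp1 in removal minus ligature (-0.0069 with median-of-ratios factors) and for Krt10 in removal minus ligature (-0.27 to 0.085 with a library left out); of these only Vegfa became called, with both scalings over the table. List calls were 13 (TMM) in place of 21 in removal minus naive, and 4 (TMM) and 3 (median-of-ratios) in place of 11 in removal minus ligature. With a library set term 126 genes of the table were called in removal minus naive in place of 66. The share of higher calls moved from 33.3% to 55.7% (ligature minus naive), 34.8% to 68.5% (removal minus naive) and 85.7% to 58.6% (removal minus ligature) with TMM, and to 56.1%, 58.8% and 34.8% with median-of-ratios factors.

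With each library left out in turn, ligature minus naive gave -1.05 to -0.95 for Egr1, 0.28 to 0.56 for Nab2 and -2.73 to -2.50 for Arc, with 130 to 154 table calls and 29 to 30 list calls. Removal minus naive gave -0.64 to -0.48, -0.14 to -0.02 and -1.56 to -1.02, with 38 to 60 and 13 to 20 calls; the table calls were 38, 42 and 43 without removal replicate 3, naive replicate 4 and naive replicate 1, and the list calls 13 without removal replicate 3. Removal minus ligature gave 0.37 to 0.53, -0.64 to -0.36 and 1.06 to 1.60, with 0 to 49 and 0 to 13 calls, 3 and 0 of them without ligature replicate 3 and 21 table calls without removal replicate 3; in the 4 fits with 0 calls (edgeR, without ligature replicates 1 or 2 or removal replicates 2 or 4), the unadjusted p was under 0.05 for 49 to 72 genes. With all libraries DESeq2 called 51. Depth limits Arc most, with 31 to 48 counts under the ligature.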
